A study of Mus musculus with 15 samples.

Results

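The comparison described here sets mature macrophages, the end of a 10 day culture of mouse bone marrow in colony-stimulating factor 1 (CSF-1), against non-adherent marrow precursors. Its members are 6 libraries of 15 in the series, 3 of mature macrophages and 3 of precursors, chosen by their labels. The marrow came from male C57BL/6 mice aged 8 to 10 weeks, with no altered gene or other treatment named. Precursors were the non-adherent cells of a 2 day culture with CSF-1 at 0.6 ng/ml and 15% fetal calf serum. Mature macrophages had 1 day at 0.6 ng/ml in the same serum, then 2 days at 12 ng/ml and 7 days at 120 ng/ml in 10% serum. Immature macrophages (3 libraries), grown for 2 days at 0.6 and 4 days at 12 ng/ml, are given for orientation only. The mature cultures left 0.6 ng/ml after 1 day, so they passed through neither the 2 day precursor stage sampled here nor exactly the immature course. Where a level is given as going through middle values, these are of the immature libraries and not an earlier point of the mature cultures. Mice carry the numbers 1 to 3 in every group, without word on whether equal numbers are one animal or on separate cultures, so p-values measure the spread between these libraries. CSF-1 concentration, time, serum and adherence changed together between the ends of the course, and their effects cannot be told apart.

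CSF-1 is the growth factor of the macrophage lineage. It acts through the receptor tyrosine kinase encoded by Csf1r, and in marrow culture it lets myeloid progenitors divide, become monocytes and then attach to the dish as macrophages while granulocytes and lymphoid cells die or are washed away. Macrophages are defined by uptake: they carry receptors for dead cells, complement and lipoproteins, and a large lysosomal compartment in which acid hydrolases break down what was taken in. They also build adhesive structures rich in actin and integrins and secrete proteases that open the extracellular matrix.

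RNA was read by Ion Torrent sequencing of libraries made from 1 µg total RNA. Precursor libraries held 11136689 to 22167294 reads assigned to genes and mature libraries 9092519 to 13937925. Levels are CPM, a gene's reads per 1e+06 reads of its library with totals scaled by TMM, and changes are log2 fold changes (mature minus precursor) ± SE from edgeR's quasi-likelihood fit. Rose, fell and called mean an adjusted p under 0.05 (Benjamini-Hochberg over all genes tested). Spearman's rho across the genes tested was 0.982 to 0.989 between precursor libraries, 0.957 to 0.975 between mature libraries and 0.760 to 0.832 between the groups. Mature library 3 stood apart in reads from the mitochondrial genome (0.363% of reads, against 0.0579% and 0.0786% in the other mature libraries and 0.382% to 0.505% in precursors). Precursor library 3 stood apart from precursor libraries 1 and 2 in the summed level of several gene lists. It was lower in interferon response genes (642 CPM, against 1995 and 2358), macrophage receptors and markers (11989.6 CPM, against 15059 and 15948), cathepsins (4664 CPM, against 6162 and 7112) and iron and heme genes (3974 CPM, against 5168 and 6068). It was higher in neutrophil genes (24885 CPM, against 18771 and 16919) and megakaryocyte genes (1140.4 CPM, against 512 and 643).

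The labels were checked against marker genes. Of 9 macrophage markers, 7 rose (Csf1r, Adgre1, Cd68, Mertk, Lyz2, Trem2 and C1qa), and Fcgr1 and Itgam did not pass the test. Adgre1, which encodes the surface protein F4/80 (ENSMUSG00000004730, chromosome 17, 57358686 to 57483529 on GRCm38), stood at 190.2, 239 and 156 CPM in the precursor libraries and 3483, 2573 and 1430.1 CPM in the mature libraries (log2 fold change 3.68 ± 0.36, adjusted p = 1.71e-05). C1qa, a chain of complement C1q, went from 48.2, 73.6 and 27 to 2858, 3139 and 1719 CPM (log2 fold change 5.69 ± 0.43, adjusted p = 2.80e-06). For both genes each mature library lay above each precursor library, a separation found in 64.1% of all genes tested, where 54.3% passed the test. All 8 precursor markers (Kit, Cd34, Flt3, Myb, Mpo, Elane, Prtn3 and Ly6c2) fell, and 7 of them, Cd34 being the other one, had 0 reads in the 3 mature libraries. Of all genes tested 28.5% fell, and each mature library had reads for 13524 to 14570 of the 34245 genes in the table. In bulk RNA, fewer cells of a type and less RNA per cell cannot be told apart.

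**Figure D1:**
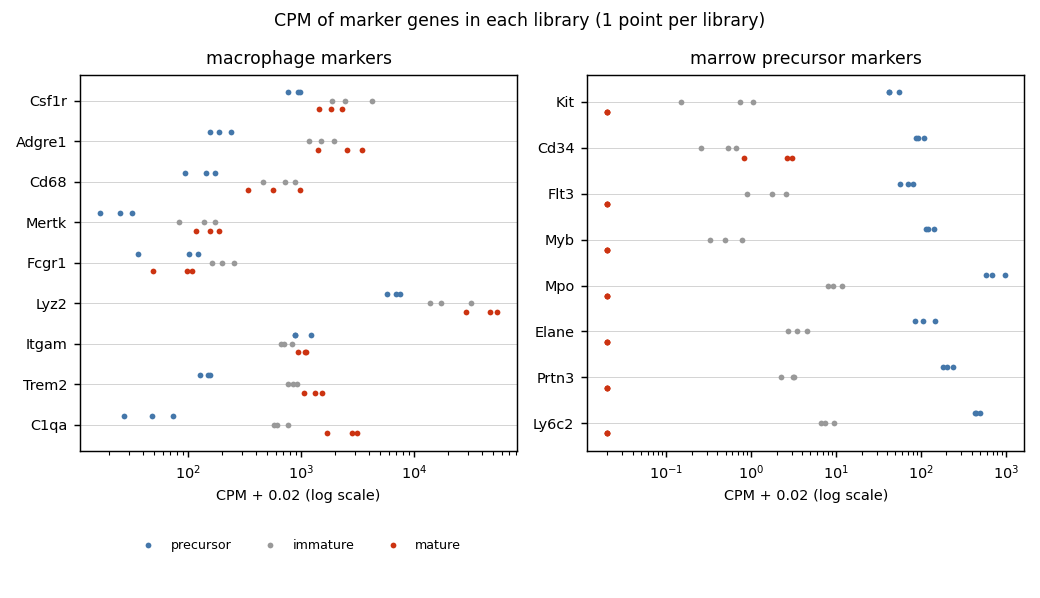
CPM of macrophage markers (left) and marrow precursor markers (right) in each library, on a log axis after adding 0.02 CPM; each point is 1 library of the precursor, immature or mature group. The mature libraries lie to the right of the precursor libraries for 7 of 9 macrophage markers, and at 0 reads for 7 of 8 precursor markers.

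Csf1r itself stood at 937, 988 and 775 CPM in precursors and 1458, 1861 and 2311 CPM in mature macrophages. The rise was about 2-fold (log2 fold change 1.06 ± 0.31, adjusted p = 0.0146), and the groups did not overlap. It did not pass without precursor library 3 (log2 fold change 0.96) or by limma on the deposited log2 values (0.61). Spi1, which encodes the myeloid transcription factor PU.1, stood at 214, 220.3 and 222 CPM in precursors and 192, 137 and 266 CPM in mature cells, and Itgam, the CD11b integrin chain of myeloid cells, at 1229, 891 and 889.7 CPM in precursors and 1077, 1115 and 938 CPM in mature macrophages. Their 95% intervals for the log2 fold change were -0.65 to 0.37 and -0.39 to 0.51. Fcgr1, the high-affinity Fc receptor for IgG, stood at 101, 122 and 36 CPM in precursors and 49.1, 109 and 98.4 CPM in mature macrophages, with an interval of -0.93 to 0.89.

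Across all genes, 7255 of 13359 tested (54.3%) differed between mature macrophages and precursors, 3445 higher (25.8%) and 3810 lower (28.5%) in mature macrophages. At a change of at least 2-fold, 2203 genes (16.5%) were higher and 3022 (22.6%) lower. By the fit the falls reached further than the rises: 861 genes fell by at least 32-fold and 150 rose by as much. Genes at 0 reads in a group are in these counts, and their fitted folds are loosely bounded. Of genes with at least 10 CPM in precursors, 175 had 0 reads in all 3 mature libraries, and 5 genes with at least 10 CPM in mature macrophages had 0 reads in all 3 precursor libraries. The median log2 fold change of all genes tested was -0.05. Of the 6104 genes that did not pass, 3430 had a 95% interval within 2-fold either way.

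**Figure D2:**
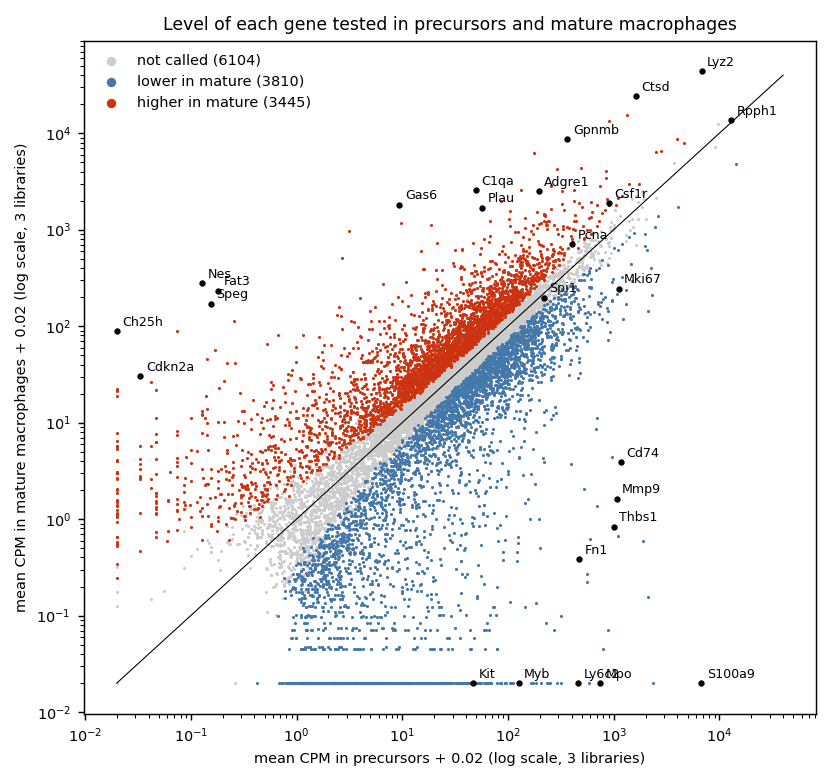
Mean CPM of each of the 13359 genes tested in precursors (x) and mature macrophages (y), both on log axes after adding 0.02 CPM; colours mark genes called higher or lower, the line marks equal levels, and black points are named genes. The row of points along the bottom holds genes with 0 reads in mature macrophages, among them S100a9, Mpo, Ly6c2, Myb and Kit.

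The largest rises by the fit were of genes nearly silent in the precursor culture. Ch25h, which encodes the enzyme that makes an oxysterol regulator of sterol synthesis (ENSMUSG00000050370, chromosome 19, 34473786 to 34475135), had 0 reads in each precursor library, 0.709, 0.307 and 1.15 CPM in immature macrophages and 64.1, 95.4 and 108 CPM in mature macrophages. It was at least 1553-fold higher, a bound that sets the group at 0 to 3 reads in all and covers counting error only. Nrcam (a neuronal adhesion molecule), Shc2 (a signalling adaptor), Pla2g5 (a secreted phospholipase A2) and Vsig4 (the complement receptor CRIg of tissue macrophages) also had 0 precursor reads and were at least 407-fold, 397-fold, 378-fold and 315-fold higher. Vsig4 was uneven, at 3.48, 26.6 and 26.3 CPM in mature libraries 1 to 3.

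Several of these genes are better known from other tissues. Fat3, an atypical cadherin of the nervous system, stood at 0, 0.323 and 0.161 CPM in precursors and 283, 198 and 216 CPM in mature macrophages (adjusted p = 2.52e-07). Nes, which encodes the intermediate filament nestin, stood at 0, 0.323 and 0 CPM in precursors and 314, 141 and 376 CPM in mature macrophages (adjusted p = 1.87e-05), and Speg, a kinase gene of striated muscle, at 0, 0.323 and 0.0803 CPM in precursors and 174, 147 and 190.1 CPM in mature macrophages (adjusted p = 3.01e-07). Precursor reads of Nes came from library 2 alone, and those of Fat3 and Speg mostly so, which leaves their folds loosely bounded while the mature levels are well measured. Cdkn2a, which encodes the cell cycle inhibitors p16 and p19Arf (ENSMUSG00000044303, chromosome 4, 89274471 to 89294653), had 1 precursor read and stood at 40.9, 33.2 and 16.2 CPM in mature cells, a ratio of pooled levels of 1545, 95% counting interval 277 to 61067. Emp2 (a tetraspan membrane protein), Edil3 (a matrix protein that binds integrins) and Cpe (a carboxypeptidase that processes peptide hormones) had 1 or 2 precursor reads each and stood at 98.4, 75 and 92.9 CPM, at 38.5, 19.5 and 20.4 CPM and at 29.5, 12.6 and 23.8 CPM in mature macrophages. Between immature and mature macrophages Speg did not pass (mature minus immature 0.90 ± 0.29, adjusted p = 0.0629). The others of these 12 genes were called higher in mature macrophages, beside 7.52% of all genes tested. All 12 were picked for their rise to the same mature libraries.

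**Figure D3:**
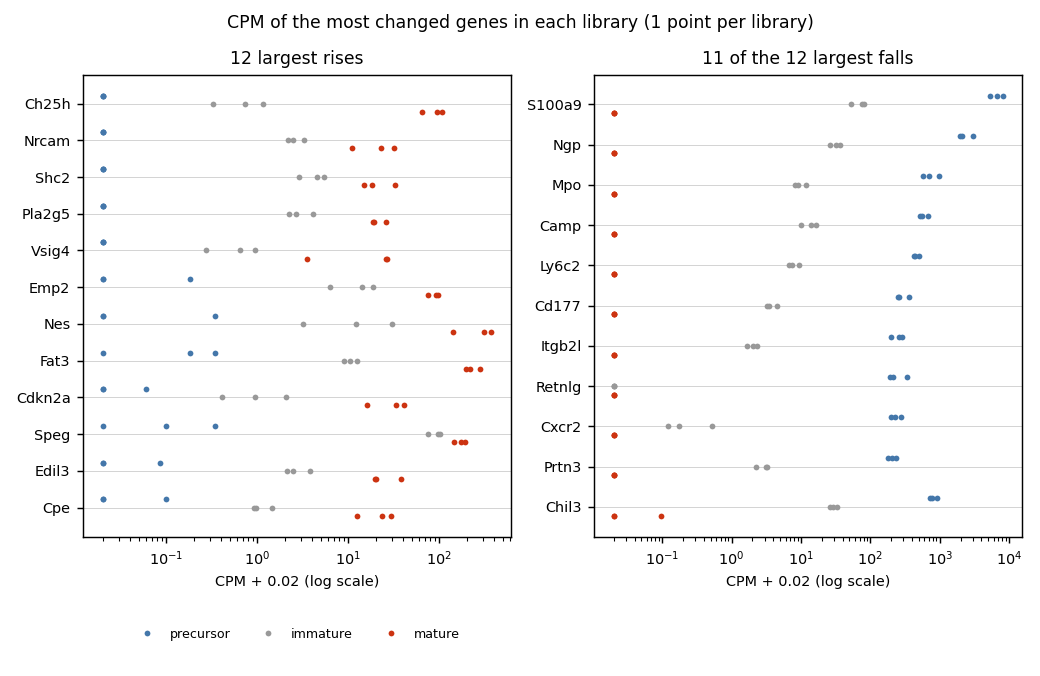
CPM of the 12 genes with the largest rises (left) and 11 of the 12 with the largest falls (right), on a log axis after adding 0.02 CPM, with 1 point per precursor, immature and mature library. The genes that rose are at or near 0 in precursors and between 3.48 and 376 CPM in mature libraries; of those that fell, only Chil3 has a mature read.

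The largest falls by the fit were of neutrophil and monocyte genes. S100a9, a calcium-binding protein that makes up calprotectin with its partner S100a8 (ENSMUSG00000056071, chromosome 3, 90692632 to 90695721), stood at 6816, 5390.1 and 8062 CPM in precursors, 81.7, 53.2 and 76.4 CPM in the immature libraries and 0 reads in each mature library, so it was at least 72890.2-fold lower. Ngp (neutrophilic granule protein), Mpo (myeloperoxidase) and Camp (the cathelicidin precursor) were at least 25470.3-fold, 8208-fold and 6436-fold lower. Ly6c2, the Ly6C antigen of young monocytes, went from 502, 433 and 445 CPM to 0 reads (at least 5161-fold), with 23.7% of its 31-base words shared with another gene. Cd177, Itgb2l, Retnlg, Cxcr2 (the neutrophil chemokine receptor) and Prtn3 (proteinase 3) also had 0 mature reads, with bounds from 2281-fold (Prtn3) to 3183-fold (Cd177). Chil3 had 1 mature read against 774, 723 and 905 CPM in precursors, a pooled ratio of 26529, 95% counting interval 4761 to 1047880.0.

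Promoters of the 24 genes were taken from RefSeq (GRCm38.p6) as the 250 bases before the start, with an entry for 21 of them. Each was searched on both strands for GAGGAAG, a word read by PU.1 and other ETS factors, CACGTG, the E-box read by MITF and TFE factors, TTGCGCA (C/EBP type), TTCCCGC (E2F type) and TGACTCA (AP-1 type). The ETS word was in 4 of 11 promoters of genes that fell (Mpo, Prtn3, Itgb2l and Ly6c2) and 1 of 10 of genes that rose. The E2F-type word was in the promoter of Cdkn2a, and none of the other words was found in these windows. The 4 sequences shown are those of the myeloid genes Mpo (chr11:87793534-87793783, plus strand), Prtn3 (chr10:79879417-79879666, plus strand) and Itgb2l (chr16:96443615-96443864, minus strand), lost to 0 reads, and of Pla2g5 (chr4:138863470-138863719, minus strand, the first of 2 listed starts), which rose. They were chosen because they hold the word, and capitals mark it on either strand.
Mpo: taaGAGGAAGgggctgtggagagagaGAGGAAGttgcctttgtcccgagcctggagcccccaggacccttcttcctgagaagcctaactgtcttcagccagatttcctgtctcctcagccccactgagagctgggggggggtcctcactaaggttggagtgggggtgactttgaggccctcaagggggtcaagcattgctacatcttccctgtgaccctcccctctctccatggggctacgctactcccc
Prtn3: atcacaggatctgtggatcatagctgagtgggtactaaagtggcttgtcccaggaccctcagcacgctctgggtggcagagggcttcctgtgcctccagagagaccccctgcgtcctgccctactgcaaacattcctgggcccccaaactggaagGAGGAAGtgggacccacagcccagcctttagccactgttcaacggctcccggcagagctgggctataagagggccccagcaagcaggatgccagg
Itgb2l: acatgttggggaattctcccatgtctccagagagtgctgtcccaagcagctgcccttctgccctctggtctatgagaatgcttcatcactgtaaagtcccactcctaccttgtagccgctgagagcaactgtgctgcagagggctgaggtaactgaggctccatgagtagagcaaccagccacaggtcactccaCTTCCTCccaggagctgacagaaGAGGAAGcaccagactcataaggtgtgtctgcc
Pla2g5: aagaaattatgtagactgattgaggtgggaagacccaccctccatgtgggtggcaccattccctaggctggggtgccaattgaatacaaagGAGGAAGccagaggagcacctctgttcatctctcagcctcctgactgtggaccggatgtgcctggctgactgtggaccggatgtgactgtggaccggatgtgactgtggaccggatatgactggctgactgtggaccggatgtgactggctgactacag
Over the table as a whole, GAGGAAG was in 10.4% of 27025 promoters of this length and in 11.1% of the 9704 of genes tested. It was in 12.8% of promoters of genes at least 2-fold lower and 11.5% of those at least 2-fold higher. At larger changes it was in 14.2% (82 of 579) of those at least 32-fold lower and 15.8% (50 of 317) of those at least 8-fold higher. These cutoffs differ, so the shares do not rank falls against rises. The word was in 14 of 26 (53.8%) of the neutrophil list. CACGTG was in 8.54% of promoters of genes tested, 8 of 32 (25%) of the lysosomal hydrolase list and 0 of 26 of the neutrophil list. A match to a short word is a description of the sequence and does not show that a factor binds there.

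Genes were then counted in lists by function, each to be read beside 25.8% higher and 28.5% lower among all genes tested. Macrophage receptors and markers were mostly higher, with 23 of 30 risen and 2 fallen (median log2 fold change 2.22, against -0.05 for all genes). Mrc1, the mannose receptor CD206, rose from 68.7, 71.2 and 64.2 to 1786, 1217 and 694 CPM (log2 fold change 4.18 ± 0.34, adjusted p = 4.69e-06). Trem2, a lipid-sensing receptor, rose from 150.3, 156 and 127 to 1549, 1328 and 1073 CPM (3.19 ± 0.22, adjusted p = 1.55e-06), and Tlr4, the receptor for bacterial lipopolysaccharide, by 1.76 ± 0.17 on the log2 scale. The 2 that fell were Axl and Cx3cr1. Axl, a receptor of the same family as Mertk, went from 136, 175 and 123 to 0, 1.40 and 2.91 CPM (log2 fold change -6.63 ± 0.76; -7.88 without mature library 3 and -6.0 without mature library 1). Cx3cr1, the fractalkine receptor, stood at 120.0, 154 and 90.1 CPM in precursors and 3.97, 72.3 and 15.9 CPM in mature libraries 1 to 3, so its fall (-1.99 ± 0.73, adjusted p = 0.0396) varied widely with the library. It was -3.60 without mature library 2, and the call was lost without precursor library 1, 2 or 3 or mature library 3, at log2 fold changes of -2.0, -1.78, -2.17 and -1.67. In those settings and with the 6 libraries alone, 1 gene of the list fell.

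Genes for the uptake of dying cells moved in both directions. Of 18 bridges and receptors for apoptotic cells, 11 rose and 5 fell. Gas6, the bridging ligand that links dying cells to Mertk and Axl, rose from 10.3, 14.6 and 3.29 to 2356, 1633 and 1440.3 CPM (log2 fold change 7.57 ± 0.56, adjusted p = 2.57e-06), and Mertk from 24.9, 31.9 and 16.5 to 189.8, 158 and 118 CPM (2.66 ± 0.33, adjusted p = 6.99e-05). The ligand and Mertk rose while Axl fell. Stab1, a scavenger receptor, rose by 3.89 ± 0.42 and Itgb5, the integrin chain that pairs with alpha V, by 1.75 ± 0.18 on the log2 scale. Olr1, a receptor for oxidised lipoprotein, went from 9.61, 9.21 and 10.8 CPM to 0 reads (at least 109.7-fold lower), and the inhibitory receptor Cd300lf fell (-3.06 ± 0.23).

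Complement genes split by component. In the list of complement and Fc receptors 10 of 21 rose and 3 fell. C1qc rose with C1qa, from 80.3, 131 and 48.6 to 2247, 1866 and 1874 CPM (4.52 ± 0.37, adjusted p = 4.63e-06). C3, the central component, fell from 498, 442 and 498 to 38.9, 41.8 and 17.8 CPM (-3.87 ± 0.36, adjusted p = 1.15e-05), and C5ar2, a receptor of C5a, fell (-1.92 ± 0.47).

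**Figure D4:**
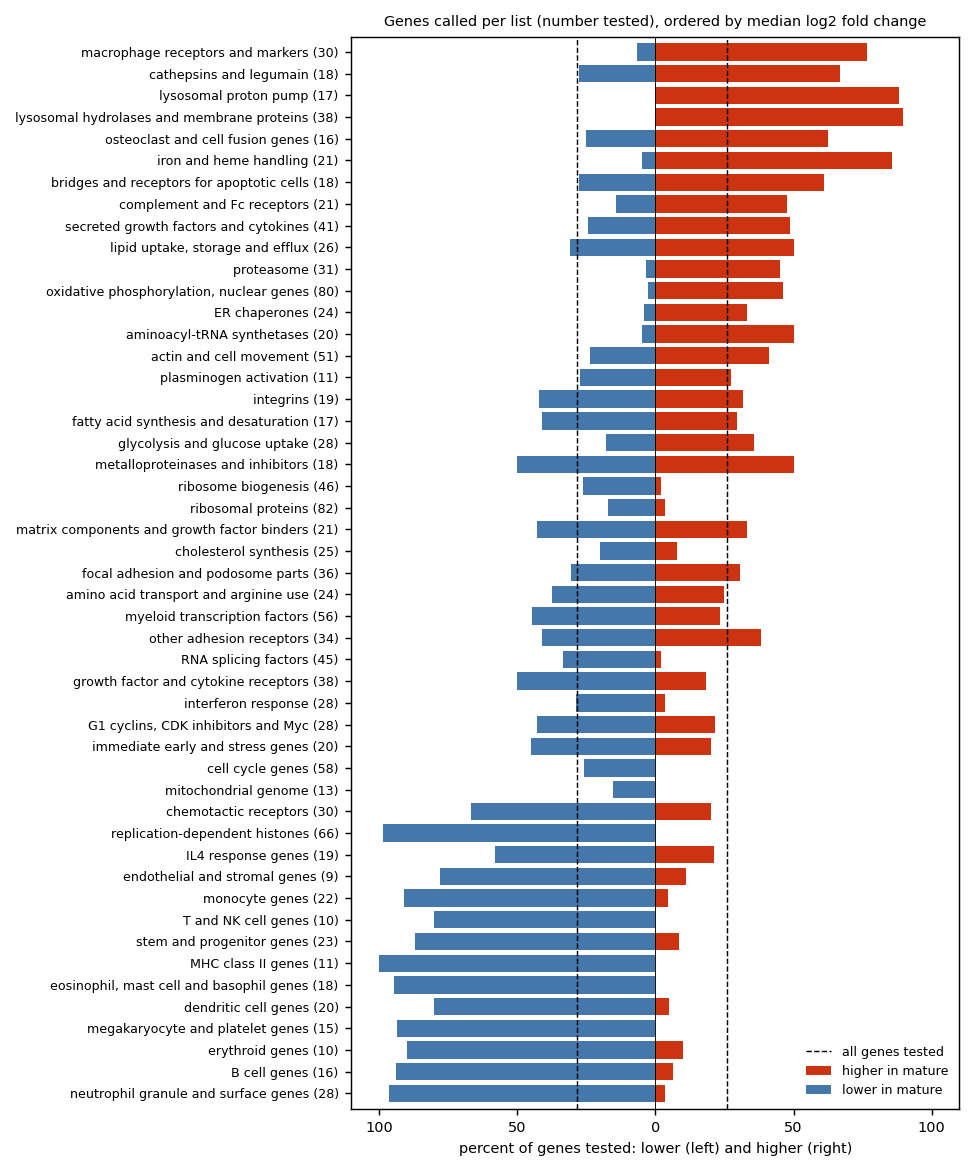
For each of 49 gene lists, the percent of its tested genes called higher (right) and lower (left) in mature macrophages, ordered by median log2 fold change, with the number tested in parentheses; dashed lines mark 25.8% and 28.5% of all genes tested. Lysosomal lists lie at the top right, and lists of other marrow lineages, MHC class II genes and histones at the bottom left.

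Lysosomal genes were higher almost throughout. Of 38 lysosomal hydrolases and membrane proteins 34 rose and 0 fell (median 1.55); without mature library 3, 2 were lower. Naglu, a hydrolase of heparan sulfate breakdown, rose from 21.1, 26.9 and 20.4 to 182, 148 and 144 CPM (2.79 ± 0.19, adjusted p = 1.76e-06), with no overlap between the groups. Gla, alpha-galactosidase, rose by 2.60 ± 0.20 on the log2 scale. Psap, the precursor of the saposins, did not pass between precursors and mature macrophages. It stood at 3274, 3803 and 3978 CPM in precursors, 20138, 12846 and 10018 CPM in the immature libraries and 5699.7, 3959 and 5211 CPM in mature macrophages, and the immature libraries were the high ones (mature minus immature -1.53 ± 0.31, adjusted p = 0.00817).

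The proton pump that acidifies the lysosome rose with its enzymes. Of 17 V-ATPase genes 15 rose and 0 fell (median 1.62). Atp6v1c1 went from 58.7, 63.5 and 51.3 to 242, 256 and 249 CPM (2.11 ± 0.16, adjusted p = 3.61e-06), and Atp6v1a and Atp6ap2 rose by 2.39 ± 0.21 and 1.78 ± 0.16. Atp6v1b2, already at 360.1, 358 and 304 CPM in precursors, stood at 391, 379.7 and 530.2 CPM and did not pass.

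Among cathepsins, the proteases of lysosomes and granules, 12 of 18 rose and 5 fell. Ctsd, the aspartic protease of lysosomes (ENSMUSG00000007891, chromosome 7, 142375911 to 142388038), rose from 1645, 1915 and 1336 to 27803, 24466 and 20451 CPM (3.89 ± 0.31, adjusted p = 4.46e-06), and Ctsb from 1392, 1778 and 845 to 16989.8, 10429 and 18537 CPM (3.52 ± 0.40). Another gene model covers 34.4% of the exon bases of Ctsd, so part of its reads are uncertain. Lgmn, the asparaginyl protease legumain, rose by 2.72 ± 0.27. Of those that fell, Ctsg, cathepsin G of neutrophil granules, went from 162, 153 and 181 CPM to 0 reads (at least 1835-fold), and Ctse from 15.3, 12.1 and 25.5 CPM to 0 reads (at least 184-fold). The summed level of the list was 6162, 7112 and 4664 CPM in precursors, 48673, 39318 and 31043 CPM in immature and 57703, 44995 and 47921 CPM in mature macrophages.

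Proteases that act on the matrix outside the cell moved in both directions. Of 18 metalloproteinases and inhibitors tested, 9 rose and 9 fell (median -0.10). Mmp12, macrophage elastase, stood at 8.69, 11.2 and 8.91 CPM in precursors and 1357, 256 and 1936 CPM in mature libraries 1 to 3 (6.94 ± 0.67, adjusted p = 1.40e-05), a wide spread above a low baseline. Adam8, a membrane metalloproteinase, rose from 464, 647 and 375 through 600.4, 802 and 1001 to 4832, 4174 and 4044 CPM (3.13 ± 0.29, adjusted p = 1.02e-05), and rose between immature and mature macrophages (2.44 ± 0.28, adjusted p = 3.95e-04). Timp2, an inhibitor of metalloproteinases, rose by 4.08 ± 0.36, and Adam9 by 2.99 ± 0.26. Mmp9, gelatinase B of neutrophil granules and other cells, fell from 964, 948 and 1289 to 4.05, 0.234 and 0.536 CPM (-9.31 ± 0.76; -11.30 without mature library 1). Mmp25, a membrane-type enzyme of neutrophils, and the inhibitor Timp3 had 0 mature reads and were at least 596-fold and 279.8-fold lower.

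In the plasminogen system 3 of 11 genes rose and 3 fell. Plau, the urokinase that activates plasminogen, rose from 62.4, 83.3 and 26 through 114, 135 and 315 to 1164, 2024 and 1874 CPM (4.88 ± 0.54, adjusted p = 3.54e-05). Anxa2, a plasminogen-binding annexin, rose by 1.28 ± 0.28, and its partner S100a10 stood at 145, 164 and 138 CPM in precursors and 181, 147 and 169 CPM in mature macrophages and did not pass. The inhibitors Serpinb2 and Serpine2 had 0 mature reads and were at least 198-fold and 170.4-fold lower.

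Matrix genes also moved both ways, with 7 of 21 higher and 9 lower. Col18a1 rose from 2.90, 3.27 and 1.61 to 166, 116 and 101 CPM (5.59 ± 0.40, adjusted p = 2.30e-06) and Lamc1, a laminin chain, from 18, 19.1 and 10.3 to 122, 98.1 and 131 CPM (2.89 ± 0.24); both encode basement membrane proteins. Fn1 (fibronectin) fell from 519.8, 440.2 and 463 to 0, 0.936 and 0.153 CPM (-10.56 ± 0.73; -9.91 and -12.39 without mature libraries 1 and 2). Thbs1 (thrombospondin) fell from 955, 776 and 1263 through 169, 71.7 and 53 to 0.648, 0.351 and 1.45 CPM (-10.16 ± 0.65; -10.87 without mature library 3), and Vcan (versican) from 290.5, 139 and 176 to 0.405, 0.351 and 0.689 CPM (-8.64 ± 0.43).

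Integrins, the receptors that hold cells to matrix, moved both ways (6 of 19 rose, 8 fell). Itgb1, the beta chain shared by many of them, rose from 229, 247 and 229.6 to 1192, 920.4 and 929 CPM (2.11 ± 0.21, adjusted p = 1.60e-05), and Itga9 from 2.63, 2.79 and 3.61 to 51.7, 53.4 and 42.3 CPM (4.03 ± 0.22). Itga2b, the platelet integrin chain, had 3 mature reads (pooled ratio 1549, 95% counting interval 529.8 to 7513), Itga1 had 3 (pooled ratio 729, 95% counting interval 249 to 3535), and Itgb7, a chain of leukocyte homing integrins, fell (-5.63 ± 0.36). Of 34 other adhesion receptors 13 rose and 14 fell. Nrp1 (neuropilin), Cadm1 and the tetraspanin Cd81 rose by 2.84 ± 0.20, 4.03 ± 0.21 and 4.10 ± 0.34. Pecam1 and Jaml had 0 mature reads, at least 561-fold and 553-fold lower.

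Among 36 parts of focal adhesions and podosomes there were 11 rises and 11 falls, shares (30.6% each) near those of all genes. Sh3pxd2a (Tks5, a podosome scaffold) rose from 25.6, 25.2 and 20.9 to 102, 97.2 and 128 CPM (2.19 ± 0.19) and Lpxn by 2.27 ± 0.21. Nedd9, a scaffold of adhesion signalling, fell (-3.56 ± 0.31), and so did the Src family kinase Fgr (-5.81 ± 0.37). Of 51 actin and cell movement genes 21 rose and 12 fell. Rhoc (a small GTPase) rose from 4.68, 7.87 and 7.71 to 122, 99.1 and 114 CPM (4.05 ± 0.24, adjusted p = 7.67e-07) and Myo1e by 3.76 ± 0.27, while Fscn1, the bundling protein fascin, went from 29.1, 30.3 and 15.4 CPM to 0 reads (at least 299-fold). The thymosins moved apart, Tmsb4x rising from 3606, 4278 and 3939.6 to 7031, 9969 and 9062 CPM (1.14 ± 0.26) and Tmsb10 falling from 181, 176 and 175 to 34.5, 31.4 and 42.3 CPM (-2.30 ± 0.23). Tmsb4x did not pass by limma on the deposited log2 values, at a log2 difference of 0.10. Of the 31-base words of Tmsb10, 32% are shared with another gene. Actb stood at 9176, 10398 and 9413 CPM in precursors and 9337, 14355 and 14101 CPM in mature macrophages and did not pass.

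Receptors for chemical attractants were mainly lost, 20 of 30 falling and 6 rising (median -2.14). Ccr9, a chemokine receptor, went from 34.6, 34.5 and 29.3 CPM to 0 reads (at least 377-fold), and the formyl peptide receptor Fpr2 fell (-5.73 ± 0.33), with 43% of its 31-base words shared with another gene. Those that rose included C3ar1, the receptor of the complement fragment C3a, from 97.1, 112 and 35.4 to 581, 484 and 607 CPM (2.77 ± 0.39, adjusted p = 1.89e-04), S1pr1 (2.16 ± 0.27) and P2ry12 (2.05 ± 0.27).

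Markers of the other cells in marrow fell almost throughout. Of 28 neutrophil genes tested 27 fell (median -13.18 by the fit, -10.17 with genes at 0 reads set at their bound). In the 3 mature libraries 20 of the 29 in the table had 0 reads. Of all 34245 genes in the table, 13524 to 14570 had a read in a mature library and 15421 to 16984 in a precursor library. The gene that rose was Anxa1, an annexin also made by macrophages, from 366, 364 and 482 to 928, 810.4 and 638 CPM (0.97 ± 0.22). Elane, neutrophil elastase, went from 84.4, 106 and 148 CPM to 0 reads, and Lcn2, a siderophore-binding granule protein, from 782, 812 and 1065 CPM to 2 reads in all (pooled ratio 14660.0, 95% counting interval 4058 to 121056). Summed over the list, the level was 18771, 16919 and 24885 CPM in precursors, 602, 569.6 and 638 CPM in immature and 948, 842 and 670.3 CPM in mature macrophages, and Anxa1 made up most of the mature sum.

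Stem and progenitor genes fell in 20 of 23 (median -7.65, -5.19 at the bounds). Myb, the transcription factor of dividing progenitors, went from 121, 116 and 141 CPM to 0 reads (at least 1397-fold), Flt3 from 70, 56.5 and 80.3 CPM and Kit from 42.2, 42.2 and 55.6 CPM to 0 reads; the latter pair are receptors of progenitor growth factors. Cd34 stood at 0.810, 3.04 and 2.60 CPM in mature macrophages against 87, 93.6 and 109.7 in precursors (-5.51 ± 0.40). The list's exceptions were Lmo2, a transcriptional partner in blood progenitors, which rose from 40.1, 36.9 and 37.5 to 207, 146 and 106 CPM (2.0 ± 0.23), and Cdk6, from 181, 192 and 168 to 276, 223 and 446 CPM (0.81 ± 0.29, adjusted p = 0.0351). The Cdk6 call was lost without any of precursor libraries 1, 2 and 3 or mature library 3 (log2 fold changes 0.82, 0.85, 0.76 and 0.48) and by limma (0.57), which left 1 gene of the list risen. Among monocyte genes 20 of 22 fell, and the one that rose was S100a4, from 242, 227 and 183 to 1427, 2126 and 683 CPM (2.70 ± 0.40), with 51.7% of its exon bases under another gene model.

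The antigen presentation genes of MHC class II fell without exception, 11 of 11 (median -8.23, -7.91 at the bounds). Cd74, the invariant chain, stood at 962, 1366 and 1208 CPM in precursors, 231, 136 and 157 CPM in immature and 2.35, 3.28 and 6.05 CPM in mature macrophages (-8.23 ± 0.43, adjusted p = 3.94e-07). H2-Ab1 fell from 506, 682 and 621 to 0.162, 0.819 and 0.842 CPM (-9.97 ± 0.48), whereas H2-DMb1, a peptide-loading chaperone, kept a level of 30.9, 20.2 and 18.1 CPM against 39.3, 44.8 and 45.3 (-0.90 ± 0.27) and lost the call without mature library 2, at -0.80. Dendritic cell genes fell in 16 of 20, with Spib and Dpp4 at 0 mature reads, and Bst2, an interferon-induced membrane protein, rose (2.20 ± 0.39). Itgax, the CD11c chain of dendritic cells and some macrophages, stood at 65.8, 78.6 and 65.3 CPM in precursors and 78, 46.5 and 266 CPM in mature libraries 1 to 3 and did not pass. Without mature library 2 it did, with a log2 fold change of 1.31, and 2 genes of the list were higher.

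B cell genes fell in 15 of 16, with Pax5 and Ms4a1, which define the lineage, going from 48.2, 63.8 and 73.7 CPM and from 37.9, 37.8 and 40.6 CPM to 0 reads. Blnk, a signalling adaptor, rose (1.49 ± 0.31). The summed level was 470.4, 622 and 654 CPM in precursors and 76.1, 81.9 and 153 CPM in mature macrophages. Blnk made up most of the mature sum. T and NK cell genes were few and low, 8 of 10 fell, and Cd8a and Cd8b1 had 0 mature reads. The list's summed level overlapped between the groups, at 61.1, 77.8 and 63.4 CPM in precursors and 54.2, 22.9 and 77.9 CPM in mature macrophages. The immature libraries were highest, at 272, 160 and 119 CPM. Il7r, a cytokine receptor of lymphoid cells, made up most of the mature sum. It stood at 21.2, 25 and 26.2 CPM in precursors and 46.3, 18.6 and 71.6 CPM in mature macrophages and did not pass. It did pass without mature library 2 (1.30), without the filter on low counts (0.93) and with DESeq2 (0.87).

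Erythroid genes fell in 9 of 10, the globin gene Hbb-bs from 163, 69.5 and 86.6 CPM to 0 reads, and the transferrin receptor Tfrc, which takes up iron in many dividing cells, rose (0.95 ± 0.22). Their summed level was 445, 296 and 298 CPM in precursors and 261, 203 and 157 CPM in mature macrophages, mostly Tfrc. Megakaryocyte and platelet genes fell in 14 of 15 and went from 512, 643 and 1140.4 CPM to 197, 107 and 122 CPM in sum. Pf4, a platelet chemokine, made up most of the mature sum and did not pass. It stood at 96.1, 148 and 237 CPM in precursors and 142, 77.6 and 109 CPM in mature macrophages. Eosinophil, mast cell and basophil genes fell in 17 of 18, Prg2 (major basic protein) from 84.2, 81.9 and 117 CPM to 0 reads, with sums of 296, 301 and 343 CPM and 12.6, 10.6 and 17.1 CPM. Of 9 endothelial and stromal genes 7 fell, Tie1 (an endothelial receptor) to 0 reads, and Kdr, a receptor of VEGF, rose (2.04 ± 0.42).

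Of 58 cell cycle genes 15 fell (25.9%, beside 28.5% of all genes) and 0 rose, with a median of -0.94. Mki67, the proliferation antigen, stood at 1178, 1013 and 1153 CPM in precursors, 105, 331 and 359 CPM in immature and 122, 209 and 402 CPM in mature macrophages (-2.19 ± 0.49, adjusted p = 0.00327). The summed level of the list was 7479, 7389 and 7199 CPM in precursors and 3032, 4033 and 5163 CPM in mature libraries 1 to 3, with no overlap, and 1258, 3958 and 5529 CPM in the immature libraries, whose spread enters the fit. With the 6 precursor and mature libraries alone 40 fell and 1 rose, with a replicate block 32 fell, with DESeq2 26 and without the filter on low counts 23. Without precursor library 1 or 2, or mature library 1 or 2, the counts of falls were 9, 9, 7 and 9, and without mature library 2 a single gene rose.

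Pcna, the replication clamp, stood at 410.1, 426 and 371 CPM in precursors and 672, 419 and 1018 CPM in mature macrophages and did not pass. It was higher in mature macrophages without mature library 2 (1.08) and with the 6 libraries alone (0.81). E2f8, a repressor of the division cycle, fell (-2.77 ± 0.52; -3.65 without mature library 3), as did E2f2, a regulator of the same family (-2.26 ± 0.29). Ezh2, a histone methyltransferase, fell too (-1.79 ± 0.28).

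Replication-dependent histones, whose messages are made in S phase and end in a stem loop rather than a poly(A) tail, fell in 65 of 66 (median -2.47), and 0 rose. Their summed level was 30226, 29322 and 28784 CPM in precursors and 2914, 4339 and 9409.7 CPM in mature macrophages. Mature library 3, the one with more mitochondrial reads and the highest summed cell cycle level, held the most histone reads of the 3. Without it 64 histone genes fell, and leaving out each other library in turn gave 45 to 58 falls. Hist1h1e, a linker histone, went from 2629, 2248 and 1969 to 126, 133 and 376 CPM (-3.43 ± 0.54; -4.13 without mature library 3). The related copies share sequence, so a reading for a single histone gene is uncertain.

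Inhibitors of the cycle and D-type cyclins both split. Of 28 G1 cyclins, CDK inhibitors and Myc family genes 6 rose and 12 fell. Cdkn2b, which encodes p15 and lies beside Cdkn2a on chromosome 4, rose from 0, 0.202 and 0.161 to 19.5, 23.9 and 13.5 CPM (7.08 ± 0.57; 7.81 without precursor library 2), with 0.630, 0.512 and 1.15 CPM in immature cells. Cdkn1a, which encodes p21, rose from 34.8, 41.3 and 13.5 to 108, 73.6 and 276 CPM (2.35 ± 0.50; 1.61 without mature library 3). Ccnd3 fell (-1.96 ± 0.16), as did Mxd1, a Myc antagonist (-4.51 ± 0.23). Other genes of the list were named after their values were seen. The inhibitor genes Cdkn1b and Cdkn2d fell (-1.52 ± 0.24 and -0.89 ± 0.30). Ccnd1 stood at 132 ± 79.6 CPM in precursors, 103 ± 124 CPM in immature and 2548 ± 455 CPM in mature macrophages (SD, n = 3; 4.27 ± 1.03, adjusted p = 0.00504). Ccnd2 stood at 88.7 ± 20.5 CPM in precursors, 1.20 ± 0.686 CPM in immature and 14.5 ± 3.46 CPM in mature macrophages (SD, n = 3; -2.62 ± 0.32). Myc stood at 51.3, 48.9 and 24.8 CPM in precursors and 4.29, 12.6 and 26.3 CPM in mature macrophages and did not pass, although it did without mature library 3 (-2.31), with a replicate block (-1.97), without the filter on low counts (-1.52) and with the 6 libraries alone (-1.53).

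**Figure D5:**
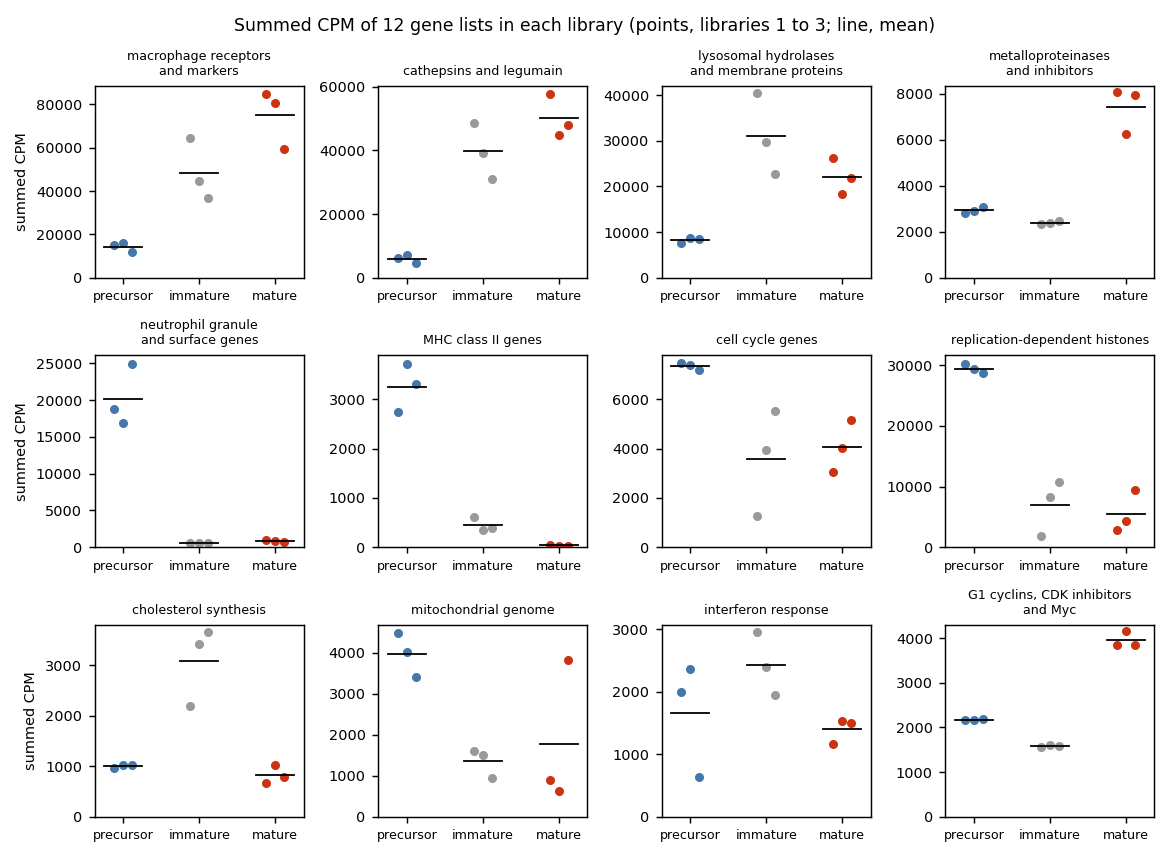
Summed CPM of 12 gene lists in each library, with precursor, immature and mature libraries 1 to 3 from left to right within a group, the group mean as a line and each axis starting at 0. Macrophage and cathepsin sums have their highest group mean in mature macrophages, with overlap of mature and immature libraries; metalloproteinase sums are highest in mature libraries, neutrophil, MHC class II and histone sums in precursors, and cholesterol synthesis sums in immature libraries.

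Most genes of protein synthesis did not pass. Of 82 ribosomal protein genes 3 rose, 14 fell and 65 did not pass (median -0.18), and many of them have near-identical copies that can take reads. Rpl6 fell from 2399.9, 1742 and 1991 to 596, 539.9 and 701 CPM (-1.74 ± 0.21, adjusted p = 7.03e-05). Among the rises were Rpl11 (0.73) and Rpl23 (0.80), and none of the 3 rises passed with RLE scaling, with a replicate block, by limma, with the 6 libraries alone or when any 1 precursor library was left out. Without mature library 1, 1 ribosomal protein gene rose, and without mature library 3, 5 rose. The count of falls was 8, 6 and 6 without precursor library 2, precursor library 3 and mature library 2, 23 by DESeq2 and 36 by limma on the deposited log2 values. Of 46 ribosome biogenesis genes 12 fell and 1 rose (6 and 7 fell without precursor libraries 1 and 2), with Mybbp1a lower (-1.20 ± 0.27) and Pes1 higher (0.84 ± 0.17). Without mature library 2 or 3, 2 rose. Splicing factors fell in 15 of 45 and rose in 1; Prpf31, the gene that rose (0.69 ± 0.24), did not pass with a replicate block (0.68) or without precursor library 1 (0.68) or 3 (0.61) or mature library 1 (0.51) or 2 (0.65), and without mature library 3, 3 of the list rose. Hnrnpd fell from 57.5, 43.5 and 42.8 to 11.4, 12.6 and 11.7 CPM (-2.01 ± 0.21).

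Genes that charge tRNA, fold secreted proteins and degrade proteins rose more often than they fell. Of 20 aminoacyl-tRNA synthetases 10 rose and 1 fell, Sars from 58.2, 71.4 and 69.6 to 337, 216 and 205 CPM (1.93 ± 0.22, adjusted p = 4.56e-05). Leaving out precursor libraries 1, 2 and 3 and mature library 2 gave 4, 5, 4 and 6 rises, and a replicate block 5. Of 31 proteasome genes 14 rose and 1 fell, Psmd8 by 1.84 ± 0.19 and Psmb6 by 1.16 ± 0.17 on the log2 scale. Leaving out precursor libraries 1 and 3 and mature libraries 1 and 2 gave 7, 4, 9 and 8 rises, and without precursor library 1 or 2 or mature library 1, 0 fell. Of 24 chaperones of the endoplasmic reticulum 8 rose and 1 fell, among them Hspa5 (BiP), from 747, 796 and 536 to 1773, 2294 and 1293 CPM (1.37 ± 0.29). That count was 4, 5 and 3 without precursor libraries 1, 2 and 3, 5 without mature library 1 or 2, 5 with a replicate block and 4 by limma, which also gave 2 falls.

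Cholesterol synthesis genes had their highest summed level in immature macrophages. Of 25 cholesterol synthesis genes 2 rose and 5 fell between precursors and mature macrophages, and 23 of 25 were below immature macrophages (of all genes tested 7.38% were lower and 7.52% higher than in immature macrophages), with a median of -1.85 against the immature level. The summed levels were 966, 1019.5 and 1022 CPM in precursors, 2195, 3418 and 3649.9 CPM in immature and 669, 1017 and 784 CPM in mature macrophages, so neither end of the course overlapped the immature libraries. Without precursor library 1, 2 or 3, the count of falls from precursors was 3 each time, and without precursor library 1 or 2 a single gene rose. The count below immature macrophages was 19 to 23 when each of the 9 libraries was left out in turn. Srebf2, the transcription factor of this pathway, went from 143, 153 and 130.4 to 45.6, 78.5 and 67.2 CPM (-1.16 ± 0.22, adjusted p = 0.00130), and Lss, lanosterol synthase, from 8.49, 12.6 and 11.8 through 62.9, 143 and 164 to 28.7, 32.1 and 30.1 CPM (1.46 ± 0.32).

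In the list of fatty acid synthesis and desaturation 5 of 17 genes rose and 7 fell, the desaturase genes Scd1, Scd2 and Fads2 among the falls. Scd1, which makes monounsaturated fatty acids (ENSMUSG00000037071, chromosome 19, 44394451 to 44407709), stood at 9.42, 18.9 and 14.3 CPM in precursors, 80.2, 112 and 93.4 CPM in the immature libraries and 0 reads in each mature library, at least 171-fold lower than precursors. Scd2 went from 56.8, 58.8 and 57.6 through 171, 619 and 811 to 0.0810, 1.17 and 2.07 CPM (log2 fold change to precursors -5.69 ± 0.74; -5.10 and -6.69 without mature libraries 1 and 3) and Fads2, the delta-6 desaturase, from 8.10, 11.3 and 12.4 through 20.3, 67.2 and 76 to 0, 0.702 and 0.383 CPM (-4.96 ± 0.73; -4.32 and -5.68 without mature libraries 1 and 2). Acly, which makes cytosolic acetyl-CoA, stood at 242, 263 and 254 CPM in precursors and 297, 274 and 236 CPM in mature macrophages and did not pass.

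Genes that take up and store lipid rose more than they fell, 13 against 8 of 26. Cd36, the receptor for oxidised lipoprotein and fatty acids, rose from 113, 151 and 47.6 to 2016, 930.3 and 1700.4 CPM (3.90 ± 0.48, adjusted p = 7.73e-05). Plin2, the lipid droplet coat, rose from 199, 288 and 169 to 1579, 1106 and 973 CPM (2.48 ± 0.26) and Nceh1, a cholesterol ester hydrolase, by 2.92 ± 0.22. Dgat2, an enzyme of triglyceride synthesis, fell to 1 mature read (pooled ratio 781, 95% counting interval 139.9 to 30871), and Dgat1 fell (-1.74 ± 0.21). Apoe, the lipid carrier, varied within groups, at 679, 778 and 748 CPM in precursors, 5146, 1649 and 842 CPM in immature and 371, 789.9 and 227 CPM in mature macrophages, and did not pass.

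Nuclear genes of oxidative phosphorylation were higher in 37 of 80 and lower in 2 (median 0.49). Ndufs5, of complex I, rose from 15.1, 15.3 and 9.71 to 41.7, 41.8 and 32.7 CPM (1.53 ± 0.22, adjusted p = 2.21e-04), and Sdhc and Uqcrb, of complexes II and III, by 1.21 ± 0.19 and 1.09 ± 0.19. Without precursor library 1 or 2 or mature library 2, 1 fell. Messages of the mitochondrial genome did not follow: 0 of 13 rose and 2 fell, with summed levels of 4486, 4010.0 and 3415 CPM in precursors and 886, 616 and 3832 CPM in mature libraries 1 to 3. The falls were of mt-Cytb and mt-Nd5; neither passed when any 1 of the precursor libraries or mature libraries 1 and 2 was left out, or with the 6 libraries alone (0 fell). Without mature library 3, 12 of 13 fell, by limma 9 and without the filter on low counts 5. Of 28 glycolysis genes 10 rose and 5 fell (9 by limma). Hk3, the hexokinase of myeloid cells, rose by 1.47 ± 0.23 and Aldoc by 3.98 ± 0.40, while the glucose transporter Slc2a3 fell from 153, 154 and 242 to 3.80, 10.5 and 9.64 CPM (-4.52 ± 0.39).

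Iron and heme genes rose in 18 of 21 and fell in 1. Macrophages recycle the iron of red cells, a process that was not tested here. Blvra, biliverdin reductase, rose from 48, 46.5 and 35.5 to 302, 262 and 238 CPM (2.62 ± 0.19, adjusted p = 2.05e-06). Slc11a2, the iron importer DMT1, and the metal carrier Slc39a8 rose by 2.05 ± 0.23 and 3.15 ± 0.22, and Ireb2, an iron sensor that binds messages, fell (-1.41 ± 0.18). Without precursor library 1 or mature library 3, without the filter on low counts and by limma, 2 fell. In amino acid transport and arginine use 6 of 24 rose and 9 fell (3 rose without precursor library 3). Asl, argininosuccinate lyase, rose by 1.49 ± 0.20, Slc7a11, the cystine carrier, fell from 88.3, 94.2 and 76.8 to 3.97, 1.17 and 2.68 CPM (-5.01 ± 0.38), and Arg2 fell to 1 mature read (pooled ratio 918, 95% counting interval 165 to 36298).

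Transcription factors of the myeloid lineage fell more often than they rose, 25 against 13 of 56. Epas1, which encodes the hypoxia factor HIF-2 alpha, rose from 1.32, 1.29 and 0.321 to 60.2, 31.1 and 92.6 CPM (5.90 ± 0.53, adjusted p = 8.64e-06), with 4.73, 6.04 and 7.92 CPM in immature cells. Ets2, which acts downstream of growth factor signals, rose from 28.8, 31.2 and 22.4 through 12.3, 10.4 and 21.6 to 224, 152 and 194 CPM (2.79 ± 0.28), and Atf3 by 3.24 ± 0.32. Cebpe, the factor of late granulocytes, fell from 32.7, 34.6 and 47.1 to 0.162, 0.819 and 0.383 CPM (-6.46 ± 0.45; -7.06 without mature library 2), and Runx2 from 48.3, 50.2 and 57 to 0.162, 0.234 and 0.536 CPM (-7.29 ± 0.37; -8.0 without mature library 3). Zeb2 stood at 488, 464 and 466 CPM in precursors and 588, 355 and 571 CPM in mature macrophages and, like Spi1, did not pass.

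Receptors for growth factors and cytokines fell in 19 of 38 and rose in 7 (4 rose without precursor library 3). Tgfbr2, a chain of the TGF-beta receptor, rose from 128, 143 and 143 to 818, 630.3 and 1054 CPM (2.60 ± 0.24, adjusted p = 9.72e-06) and Il10rb, a chain of the IL10 receptor, by 1.99 ± 0.21. Igf1r, the receptor of insulin-like growth factor, fell from 97.1, 93 and 109.9 to 2.59, 4.45 and 2.30 CPM (-5.03 ± 0.34), and Il1r2, the decoy receptor of IL1, went to 0 reads (at least 309.6-fold). Of 41 secreted growth factors and cytokines 20 rose and 10 fell. Pdgfb, a platelet-derived growth factor, rose from 3.95, 6.46 and 7.71 through 17.3, 18.4 and 14.1 to 99.2, 110.2 and 128 CPM (4.22 ± 0.27) and Ccl4, a chemokine, from 5.86, 3.63 and 5.94 to 66.7, 72.8 and 139 CPM (4.18 ± 0.33). The gene of the growth factor itself, Csf1, fell from 23.8, 27.7 and 23.1 through 16.6, 8.29 and 3.96 to 0.729, 0.351 and 0.383 CPM (-5.62 ± 0.55, adjusted p = 1.65e-05).

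Genes of osteoclasts and of cell fusion, a related fate of the same precursors, rose in 10 of 16 and fell in 4. Cd200r1, an inhibitory receptor, rose by 2.95 ± 0.22. Itgb3, the integrin chain of osteoclasts and platelets, fell from 114, 136 and 233 to 22.5, 15.2 and 2.68 CPM (-3.58 ± 0.59; -4.20 without mature library 1), and Cd47, the signal that restrains uptake, fell as well (-1.07 ± 0.17). Tyrobp, the adaptor of Trem2, stood at 505, 522 and 565 CPM in precursors and 584, 513 and 916 CPM in mature macrophages and did not pass. Genes that mark an IL4 response fell in 11 of 19 and rose in 4. Tgm2, transglutaminase, rose by 1.65 ± 0.30, and Mmp12 and Mrc1, described above, also rose. Chil3 is among the largest falls described above. The summed level of the list was 1743, 1614 and 1829 CPM in precursors and 3302, 1722 and 2950 CPM in mature macrophages.

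Interferon response genes fell in 8 of 28 and rose in 1 (28.6% fell, beside 28.5% of all genes tested). The precursors were not alike here, with summed levels of 1995, 2358 and 642 CPM in libraries 1 to 3 against 1167, 1535 and 1496 CPM in mature macrophages. Without precursor library 3, 17 fell; without precursor library 1 or 2 or mature library 1 or 2, 5 fell each time, without precursor library 2, 3 rose, and with a replicate block 2 rose. Mx1, an antiviral GTPase, stood at 57.6, 56.7 and 21.1 CPM in precursors and 3.72, 6.67 and 3.37 CPM in mature macrophages (-3.32 ± 0.42). Fcgr1, C1qa, C1qc, Gas6, Plau and Cd36, with values given above, were also lowest in this library among precursors. Without it C1qa still rose (5.40) and Fcgr1 still did not pass (-0.39). Immediate early and stress genes fell in 9 of 20, Zfp36, which shortens the life of cytokine messages, from 85.2, 75.5 and 82.8 to 8.18, 9.36 and 25 CPM (-2.51 ± 0.41; -3.20 without mature library 3), and 4 rose, Jun by 0.81 ± 0.21.

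The most abundant messages of mature macrophages were led by Lyz2 and Ctsd. Per kilobase of exon, Lyz2, lysozyme of macrophages and granulocytes, went from 5169 to 33267 in RPKM (mean of 3 libraries), Ctsd from 694 to 10310.5, and Actb from 3607 to 4702. On the CPM scale Lyz2 stood at 7022, 7556 and 5831 in precursors and 47128, 54933 and 29278 in mature macrophages (2.69 ± 0.41, adjusted p = 2.88e-04), with 32.8% of its 31-base words shared with another gene, chiefly Lyz1. By limma on the deposited log2 values its difference was 1.17 and did not pass. Gpnmb, a lysosomal membrane glycoprotein, rose from 376, 530.4 and 190.3 to 12206, 5538 and 8318 CPM (4.57 ± 0.46). AC034099.1, also among the 8 largest shares in mature macrophages, lies wholly over exons of Ctsd, so its reads cannot be assigned apart from it. The 10 most abundant genes held 7.92% to 9.09% of reads in precursors and 13.6% to 15.8% in mature macrophages.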

How the data were processed

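RNA-seq of 9 libraries (3 precursor, 3 immature, 3 mature) was used. The deposited table holds raw read counts per gene, which the authors made from Ion Torrent reads aligned with HISAT2 2.0.5 per the submitters' processing notes, which name edgeR too. As genome builds they list GRCm38.p6 with GRCm39.p6. What program counted the reads, with which strand setting and annotation, is not given in the sources used here, so overlapping and antisense genes cannot be told apart. A second table deposited by the authors holds log2 RPM whose sorted values match between libraries, and it served only for an alternative. Another holds the authors' adjusted p-values for genes under 0.05.

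From the counts, 13359 of 34245 genes passed edgeR's filterByExpr (minimum count 10). TMM scaling and edgeR 4.0.16's quasi-likelihood test in R 4.3.3 were fitted over the 9 libraries, sharing 1 estimate of the spread, with Benjamini-Hochberg adjustment over the genes tested and calls at 0.05. Rows with no identifier (83, holding 0.258% to 0.453% of reads in each library) were kept in the fit, and Itgam is among them. The authors' deposited table lists 7291 genes, of which 6396 were tested here and 6248 called. Depth limits levels near 1 read, and floors and counting intervals cover counting error only. Gene positions are those of the deposited table, of which 34041 of 34162 identifiers overlapped their place in GENCODE M21 on GRCm38. Shared 31-base words, exon overlap and exon length come from that annotation, and promoters from RefSeq.

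The text names the 12 called genes that rose most and the 12 that fell most, among those with at least 10 CPM and no overlap between groups, leaving out predicted genes and clones. It also names, per list, up to 3 called members in each direction by p with at least 5 CPM, the most abundant member not called (in lists of other lineages also that with the highest mature level), the 8 largest shares of reads per group, and 13 marker genes. Genes outside this rule are named as such, and some genes it covers are not reported here. Members and lists were chosen with earlier results of these data known. Alternatives were RLE scaling, other filters, the 6 libraries alone, a replicate block, each library left out, DESeq2 1.42.0, limma 3.58.1 on the deposited log2 values, and stricter thresholds. Leaving out each of the 9 libraries for genes below immature macrophages was chosen after seeing the data.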

Additional observations from a re-analysis of the deposited data

How the results depend on the processing

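The calls over all genes, 3445 higher and 3810 lower, were within 1.5 times of these under RLE scaling (3276 and 3959), no filter on low counts (3443 and 4256), a 1 CPM filter (3355 and 3669), the 6 libraries alone (3259 and 3778), DESeq2 (3415 and 4121) and limma on the deposited log2 values (4067 and 3457). Leaving out 1 library at a time gave 2905 to 3615 higher and 3334 to 4169 lower. Stricter calls gave fewer by construction, 1408 and 1558 at an adjusted p under 0.001, and 1309 and 1982 when tested against a 2-fold change. Limma's values moved the median log2 fold change of all genes from -0.05 to 0.08, and there Eef1a1, called higher by edgeR, reversed to -0.26, for which the cause was not tested. Deviations of same-numbered precursor and mature libraries correlated at -0.06, -0.05 and -0.04 across genes. Those of other pairs correlated at -0.03 to 0.07. With so few libraries in a group, these values cannot show whether equal numbers mark the same animal. A replicate block gave 3146 higher and 3715 lower. Of 299 genes covered by the naming rule 253 were called, and 236 kept call and direction in all 13 settings, while 17 lost the call or direction in at least 1. Of the 46 not called, 16 were called in a setting. Levels near 1 read are limited by depth.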

Other observations

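Genes also differed by annotated type, taken from GENCODE M21 and counted beside 25.8% higher and 28.5% lower among all genes tested. Of 12028 protein-coding genes tested 27.7% were higher and 26.5% lower in mature macrophages. Of 511 genes annotated as still to be experimentally checked (TEC) 15 were higher and 319 lower (62.4%). Of 234 long intergenic non-coding genes 25 were higher and 93 lower, and of 65 genes within introns on the sense strand 1 was higher and 40 lower. Of 20 small Cajal body RNA genes 17 were lower and 0 higher. Without a stated strand setting, reads of intronic models and their host genes cannot be told apart.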
